A study of Mus musculus with 4 samples.

Results

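The cells described here are the epicardial and mesothelial cells among the interstitial cells of the mouse heart, 273 of the 38910 cell barcodes that passed a filter on quality (0.702%, exact 95% binomial interval 0.621% to 0.790%). A member of this set is a barcode with at least 3 UMIs, the tags that each count 1 RNA molecule, summed over Msln, Upk3b, Upk1b and Krt19, no UMI of the endothelial genes Pecam1 and Cdh5, and no UMI of the leukocyte gene Ptprc. They are set beside 7108 fibroblasts, barcodes with at least 1 UMI of Pdgfra, at least 5 of Dcn and Gsn together, and none of the 4 selecting genes. Because the members were picked by RNA measured in these same barcodes, every gene below is described and none is tested: no p-value is given, and an interval covers counting error only.

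The study took hearts 1 month after an experimental stroke and hearts of control animals, with 2 Stroke samples and 2 Control samples. All 4 samples carry the strain Ccr2creERT2-Ai14, in which an inducible Cre recombinase is driven by Ccr2, a chemokine receptor gene of monocytes, and a Cre-dependent reporter makes tdTomato. The dissociated hearts were strained against cardiomyocytes, cleared of red and dead cells and sorted for live nucleated cells before 10x Genomics 3′ libraries were made, and these steps may favour or lose surface cells. The deposited table joins 4 libraries by a barcode suffix that no label ties to a sample, so Stroke and Control hearts are not compared here and the libraries are named 1 to 4.

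The epicardium is the mesothelial sheet on the outside of the heart. Mesothelium is a flat epithelium that lines the body cavities, keeps them slippery with mucins and hyaluronan, and carries keratins together with mesenchymal features. In the embryo, epicardial cells lose their epithelial contacts, enter the heart wall and give rise to fibroblasts and to the mural cells of coronary vessels, and the sheet is a source of retinoic acid and growth factors for the muscle under it. The selecting genes are shared by the epicardium, the pericardium and other mesothelium, so these layers cannot be told apart in dissociated hearts.

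The 4 libraries held 72, 87, 17 and 97 members, which is 0.732%, 0.882%, 0.193% and 0.933% of their cells. Library 3 stood apart, with the fewest members, 2 UMIs of Xist against 19828 to 27032 in the other libraries, and members of 4251 UMIs at the median against 6782 to 7076; without it the members were 0.851% of cells. Members came with a median of 6837 UMIs and 2754 genes, close to the 6820 UMIs and 2718.5 genes of fibroblasts, and with 3.63% mitochondrial UMIs against 2.48%. Fibroblasts numbered 2902, 1784, 634 and 1788, so that members made up 2.42%, 4.65%, 2.61% and 5.15% of both classes together. Scrublet, a program that scores barcodes for likeness to simulated pairs of cells, marked 10 members and 525 fibroblasts as doublets, and all of them were kept. Of the barcode sequences 161 occurred in more than 1 library, 3 of them in a member, and none was held by members of different libraries.

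The selecting genes were carried broadly, not by 1 gene alone. Upk3b, an uroplakin of the apical membrane, was seen in 266 members, Msln, the surface glycoprotein mesothelin, in 252, Krt19, an intermediate filament keratin, in 246 and Upk1b, a tetraspanin partner of uroplakins, in 236. All 4 were present in 205 members (75.1%), 3 of them in 47, 2 in 18 and 1 in 3, and the summed count had a median of 28 UMIs and a maximum of 88. Near the threshold 5 members had a sum of 3 and 4 had a sum of 4, while 8 barcodes with a sum of 2 and 85 with a sum of 1 were left outside. CPM stands here for UMIs of a gene per 1000000 UMIs summed over the cells of a class. Muc16 had only 5 UMIs over the 5 members with a sum of 3 (585 CPM), against 1 UMI over the 8 barcodes with a sum of 2 (17.7 CPM) and 7 UMIs over the 85 with a sum of 1 (13.1 CPM). Of these barcodes 6 of 8 and 68 of 85 also met the fibroblast definition.

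Msln reached 867, 783, 1617 and 1079 CPM in the members of libraries 1 to 4, and Upk3b reached 2437, 2030.2, 2005 and 2450.0 CPM. Both were at 0 in fibroblasts by construction. Of all Upk3b UMIs in cells that passed the filter, 82.2% lay in members, and of Msln UMIs 79.6%. The selection reads both genes, so these shares are largely set by it. A further 60 barcodes had a sum of 3 or more but were turned away by a UMI of Pecam1, Cdh5 or Ptprc. These had a median of 9021 UMIs, and 14 of them (23.3%) were marked as doublets. They also held Wt1 at 419 CPM, seen in 83.3% of them, and Muc16 at 962 CPM. The members' share leaves these barcodes out, and whether they are single mesothelial cells was not tested.

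The label was set beside Wt1 and C3, which the selection did not read. Both were named as its markers with earlier results of these data known, so their direction is no independent evidence. Wt1, a zinc finger transcription factor that marks the epicardium, stood at 458, 537, 438 and 416 CPM in members of libraries 1 to 4, against 3.24, 5.03, 3.21 and 2.22 CPM in fibroblasts. C3, the central protein of the complement cascade, stood at 2371, 2442, 2504 and 2842 CPM in members, against 521, 374, 484 and 418 CPM in fibroblasts. Neither gene's library values overlapped between the classes, and the pooled ratios were 133 (113 to 158) and 5.66 (5.48 to 5.84). After each cell was thinned to 1000 UMIs, Wt1 was detected in 33.3% of members, 0.339% of fibroblasts and 5.10% of endothelial barcodes, and C3 in 84.6%, 28.5% and 0.685%. Before thinning the shares were 81.7% of members and 1.77% of fibroblasts for Wt1, and 98.5% and 62.9% for C3, at median depths of 6837 and 6820 UMIs, with 2650 UMIs in endothelial barcodes. Thinning left out 6 members and 29 fibroblasts.

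Markers of immune, mural, Schwann and heart muscle cells were low in members, and so were endothelial genes apart from a pair. Fibroblast markers were not low: without Pdgfra, Dcn and Gsn their list was at 2700 CPM in members, against 8168 in fibroblasts. Members had to lack Ptprc, Pecam1 and Cdh5, whereas fibroblasts did not and held 13.2, 50.3 and 33.9 CPM of them, so the immune and endothelial values are in part set by the definitions, although these 3 genes are left out of the sums. The summed immune list was at 73.8 CPM in members and 387 in fibroblasts, the mural list at 36.3 and 151, the Schwann cell list at 11.4 and 65.7, and the cardiomyocyte list at 15.2 and 56.96. The cardiomyocyte genes Actc1 and Ryr2 and the immune genes Cd3e and Nkg7 had no UMI in any member, and 3 UMIs over the class would be 1.63 CPM. The surfactant genes Sftpc, Sftpb and Sftpa1 of lung epithelium, and Upk2, Upk3a and Krt5 of urothelium, also had none, and the 5 adipocyte genes had none. The endothelial list was higher in members, at 812 against 541 CPM, through Kdr, a VEGF receptor, at 295 against 47.9 CPM, and Npr3, a natriuretic peptide clearance receptor, at 419 against 20.5 CPM. Cldn5, Emcn, Egfl7 and Tie1, which define endothelium, stood at 3.80 to 9.22 CPM in members, so that the excess lay in Kdr and Npr3 and not in the list as a whole.

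**Figure D1:**
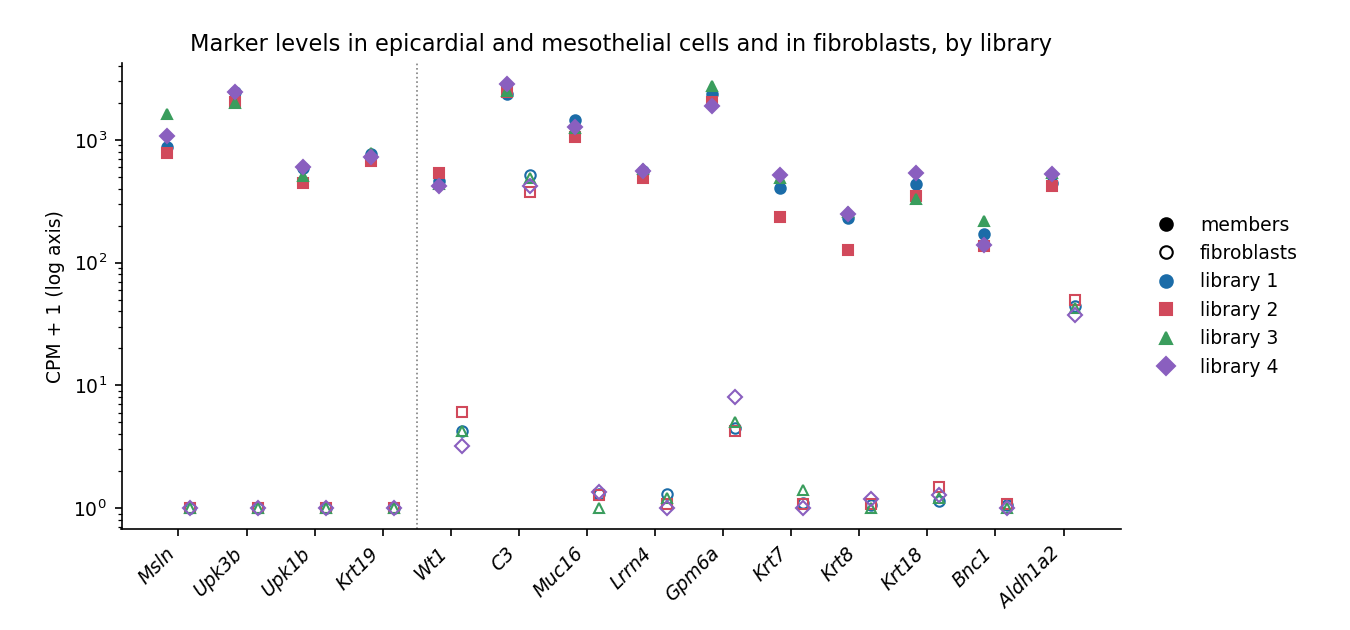
Level of 14 genes in members (filled) and fibroblasts (open) of each library, as CPM plus 1 on a log axis, with the selecting genes left of the dotted line, at 0 CPM in fibroblasts by construction. For Wt1, C3 and the 8 genes right of them, each library's members lie above every library's fibroblasts.

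Over all genes, members and fibroblasts differed in both directions to a similar extent. Of 7834 genes with at least 20 CPM in either class, the genes of the definitions left aside, 1052 were at least 2-fold higher in members (13.4%) and 1040 were at least 2-fold lower (13.3%). Of these, 949 and 1013 lay in the same direction in all 4 libraries. A difference of 10-fold or more was seen for 371 genes on the higher side and 204 on the lower side, and the median log2 ratio of all genes was -0.05. These shares are the background for the counts of each gene list below.

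**Figure D2:**
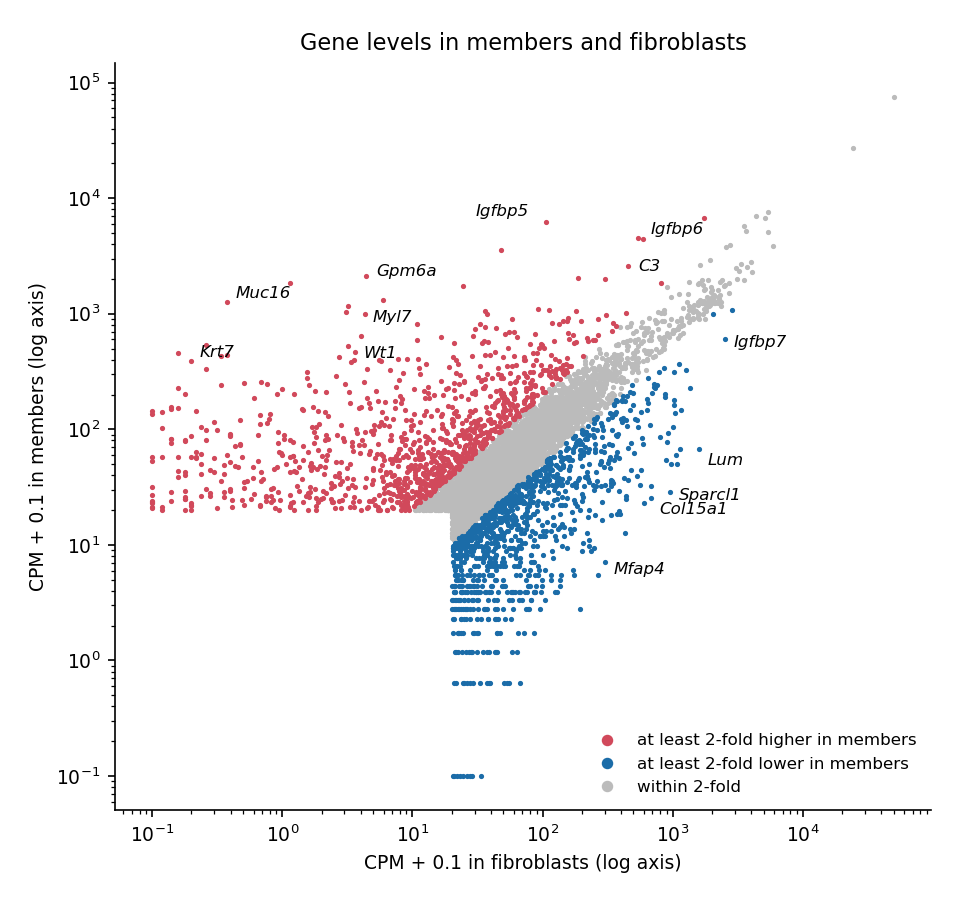
Level of each of the 7834 genes in members (vertical) against fibroblasts (horizontal), as CPM plus 0.1 on log axes. The 1052 genes at least 2-fold higher in members are red, the 1040 at least 2-fold lower are blue, and genes such as Muc16 and Krt7 sit at the far left, near 0 in fibroblasts.

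The mesothelial list outside the selection was higher in members almost throughout. Of 20 genes 18 could be compared, and all 18 were at least 2-fold higher, with a median log2 ratio of 8.20. Their summed level was 13248 CPM in members (12328 to 14695 over libraries) and 969.6 in fibroblasts (944 to 988). The list was drawn up with earlier results of these data known, so its direction is no independent evidence. The exceptions lay below the level for comparison: Podxl, an apical sialomucin, had 18.98 CPM in members and 18.9 in fibroblasts, and Calb2, the calcium-binding protein calretinin used as a mesothelial marker in human pathology, had no UMI in members.

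Several of the genes of widest ratio code for proteins of the cell surface. Muc16, the membrane mucin known as CA125 that binds mesothelin, was at 1453, 1049.7, 1252 and 1272 CPM in members of libraries 1 to 4, against 0.290, 0.283, 0 and 0.355 CPM in fibroblasts. Lrrn4, a membrane protein with leucine-rich repeats, was at 559, 491, 583 and 561 CPM in members, against 0.290, 0.0708, 0.201 and 0 in fibroblasts. The library values of both genes kept within narrow bounds among members and were close to 0 in fibroblasts, and 79.1% and 80.2% of all their UMIs lay in members. The pooled ratios were 4559 for Muc16 (2712 to 8352) and 3440.5 for Lrrn4 (1739 to 7991). Thinned to 1000 UMIs, Muc16 was found in 62.5% of members, 0.0141% of fibroblasts and 0.0388% of endothelial barcodes.

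Channels, carriers and further membrane proteins were also among the 20 genes of widest ratio. Tm4sf5, a protein with 4 membrane spans, had 545, 223, 449.7 and 603 CPM in members of the 4 libraries, against 0, 0.142, 0.201 and 0 in fibroblasts, and its value in library 2 was the lowest. The potassium channel subunit Kcnd2 was at 1852 CPM in members and 1.04 in fibroblasts, and the anion exchanger Slc26a3 at 228 and 0.0588. The endocytic receptor Lrp2, known as megalin, was at 331 CPM in members, against 0.157 in fibroblasts, 0.244 in endothelial and 0.333 in immune barcodes. It had no UMI in mural and Schwann barcodes, where 3 UMIs would be 2.24 and 11.3 CPM. Without library 2 the log2 ratio of Lrp2 to fibroblasts was 13.39, against 11.05 with all libraries. Nkain4, a partner of the sodium pump, stood at 1178 against 3.08 CPM, the ferric reductase Cybrd1 at 241 against 0.235, and the junctional adhesion receptor Cxadr at 256 against 0.588. Dmkn, a secreted protein known from epidermis, was at 253 against 0.411 CPM and galectin-7 (Lgals7) at 431 against 0.235. Gpm6a, a membrane glycoprotein known from neurons, had 2361, 2030.2, 2771 and 1889 CPM in members of libraries 1 to 4, against 3.53, 3.26, 4.02 and 7.02 in fibroblasts, and Wdr17, a WD repeat protein, had 1035 CPM in members and 2.98 in fibroblasts. The gene bodies of Gpm6a and Wdr17 do not overlap in the GENCODE annotation, but a further RefSeq start of Gpm6a lies within Wdr17 on the other strand, and the sources used here do not give the strand rule of the counting, so these genes may share reads.

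Myl7, the regulatory light chain of atrial myosin, belonged to the same 20 genes. It reached 1029, 515, 1118 and 1376 CPM in members of libraries 1 to 4, against 8.27, 2.19, 0.201 and 0.977 in fibroblasts. Library 2 was lowest among members, and all 4 members' values lay above all 4 fibroblast values. In the same members the other cardiomyocyte genes were near 0, with Actc1 at 0, Nppa at 2.71, Myl2 at 0.542 and Myh6 at 3.80 CPM. Of all Myl7 UMIs, 44.97% lay in members.

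The stretches before the transcription start of 4 genes of this group are shown because they belong to genes with high levels in members and low ones in fibroblasts, including a selecting gene, and because Tead1, a transcription factor that binds the letters GGAATG, was higher in members (282 against 127 CPM). Each is the 250 bases upstream of a RefSeq start in GRCm38.p6, read 5′ to 3′ on the gene's strand, with GGAATG or its reverse complement CATTCC in capitals.
Upk3b, chr5:136038246-136038495, plus strand: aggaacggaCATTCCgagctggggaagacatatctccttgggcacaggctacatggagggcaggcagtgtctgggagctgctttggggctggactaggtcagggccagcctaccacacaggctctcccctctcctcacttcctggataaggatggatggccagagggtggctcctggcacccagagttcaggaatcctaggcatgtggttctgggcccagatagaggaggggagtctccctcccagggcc
Lrrn4, chr2:132880863-132881112, minus strand: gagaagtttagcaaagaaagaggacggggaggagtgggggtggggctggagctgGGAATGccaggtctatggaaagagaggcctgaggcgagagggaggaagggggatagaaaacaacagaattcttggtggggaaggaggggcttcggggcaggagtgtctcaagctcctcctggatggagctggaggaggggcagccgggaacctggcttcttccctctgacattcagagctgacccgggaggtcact
Myl7, chr11:5898783-5899032, minus strand: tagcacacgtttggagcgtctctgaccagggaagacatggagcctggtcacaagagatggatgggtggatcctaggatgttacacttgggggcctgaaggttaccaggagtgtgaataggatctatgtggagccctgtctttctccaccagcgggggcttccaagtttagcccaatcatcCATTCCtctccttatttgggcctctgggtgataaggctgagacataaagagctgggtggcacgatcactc
Muc16, chr9:18674604-18674853, minus strand: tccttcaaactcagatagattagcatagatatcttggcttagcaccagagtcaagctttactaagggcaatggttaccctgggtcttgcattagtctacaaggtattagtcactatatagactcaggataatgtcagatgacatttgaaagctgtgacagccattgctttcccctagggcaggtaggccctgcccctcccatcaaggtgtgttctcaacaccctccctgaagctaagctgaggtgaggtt
The motif occurs once in the windows of Upk3b, Lrrn4 and Myl7 and not in that of Muc16. A window of Krt7, read with these and not shown, did not hold it either, so the windows shown do not give the motif's share. Of 24 genes looked up, 18 had a window in the table, 26 windows in all, and 5 of these held the motif (19.2%), against 4153 of all 32851 windows of that length (12.6%). The letters AGATAA or TTATCT, which GATA factors bind, occurred in 2 of the 26 (7.69%) and in 9.99% of all windows. A match of letters describes the sequence and is not evidence of binding.

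Keratins and epithelial junctions differed in 1 direction. Of 23 genes compared, 18 were at least 2-fold higher in members and none was lower, with a median log2 ratio of 4.82 and a summed level of 2693 CPM (2245 to 2982 over libraries) against 474 (452 to 494). The keratins of simple epithelium were all near 0 in fibroblasts. Krt7 had 401, 235, 486 and 514 CPM in members of libraries 1 to 4, Krt8 had 229.9, 127, 255 and 246 and Krt18 had 436, 351, 328 and 537, against at most 0.496 CPM in any library's fibroblasts. The lowest value of Krt7 and of Krt8 was that of library 2. Of the claudins, which seal tight junctions, Cldn15 was at 382 against 3.27 CPM, Cldn10 at 92.2 against 3.66 and Cldn3 at 62.9 against 0.842, while Cldn4 and Cldn7 had no UMI in members. P-cadherin (Cdh3) was at 81.9 CPM in members and 0.0392 in fibroblasts, whereas E-cadherin (Cdh1) and Epcam, the usual pair of gland epithelium, had only 2.71 and 2.17 CPM in members. The polarity gene Crb2 (57.5 against 0.118 CPM), the desmosomal cadherin Dsg2 (52.6 against 1.16) and the plakophilin Pkp2 (46.6 against 1.61) were higher too. Stratified keratin Krt14 stood at 43.4 CPM in members against 0.0588, with Krt5 at 0 in both classes.

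Of the apical and hyaluronan genes, 9 of 16 were higher and 5 were lower, with a median log2 ratio of 1.11 and sums of 4811 against 1637 CPM. The cortical linker ezrin (Ezr) had 945, 535, 997 and 929 CPM in members of libraries 1 to 4, against 29.9, 34.6, 37.4 and 33.5 in fibroblasts. Its scaffold partner Slc9a3r1 was at 335 against 4.39 CPM, a ratio of 76.3 (65.4 to 89.3). The water channel Aqp1 was at 640.0 against 28.9 CPM, but endothelial barcodes held 579 CPM of it. The related linker moesin (Msn) was lower, at 88.4 against 221 CPM, and radixin (Rdx) differed by less than 2-fold. The hyaluronan synthases were low and opposed, Has1 at 21.2 against 9.13 CPM and Has2 at 4.34 against 31.5, and the hyaluronan-binding Itih5 was at 21.7 against 184. Prg4, the lubricant lubricin, had 19.5 CPM in members and 36.9 in fibroblasts.

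Transcription factors of the epicardium divided into those high in members and those high in fibroblasts. Of 16 compared, 9 were at least 2-fold higher in members and 3 were lower, with a median log2 ratio of 1.09 and sums of 2734 CPM (2516 to 2962) against 1450.5 (1306 to 1558). Besides Wt1, the zinc finger gene Bnc1 had 171, 135, 219 and 137 CPM in members of libraries 1 to 4, against 0.0483, 0.0708, 0 and 0 in fibroblasts. Tbx18, a T-box factor of the embryonic epicardium, had 197, 184, 425 and 230.4 CPM in members, against 31.3, 29.2, 30.3 and 29.1 in fibroblasts, and Gata5 had 42.9 against 0.0784 CPM. Both sets of library values were apart for Bnc1 and for Tbx18. Gata6 (226 against 99.7 CPM), Meis1 (294 against 95.02), Meis2 (649.8 against 171) and Osr1 (158 against 78.6) were higher as well, though Osr1 had 91.6, 285, 12.2 and 113 CPM in members of the 4 libraries, which overlaps the fibroblast values of 87.9, 84.2, 63.5 and 61.4.

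The lower factors were Tcf21, Tbx20 and Sox9. Tcf21, a bHLH factor needed for cardiac fibroblasts in the mouse, had 13.6, 15.2, 24.3 and 16.8 CPM in members, against 93.1, 142, 122 and 84.02 in fibroblasts, a level lower by a factor of 6.82 (4.74 to 10.2). Tbx20 was at 65.1 against 281 CPM and Sox9 at 13.02 against 116. Gata4 (114 against 81.6 CPM), Hand2 (75.4 against 48.3) and Nr2f2 (69.4 against 58.1) differed by less than 2-fold.

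**Figure D3:**
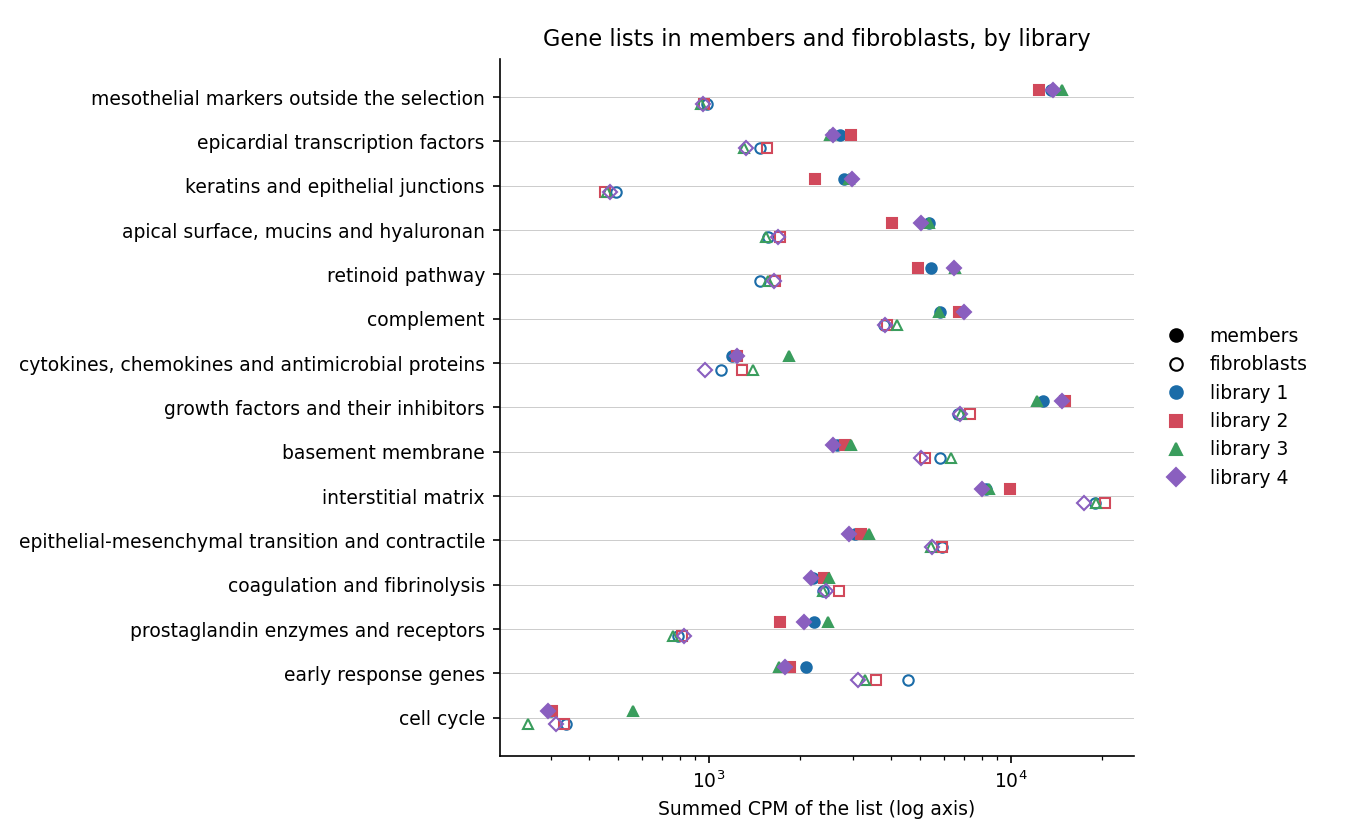
Summed CPM of 15 gene lists, one row each, in members (filled) and fibroblasts (open) of each library on a log axis. The members lie to the right in every library for the mesothelial, transcription factor, keratin, apical, retinoid, complement, growth factor and prostaglandin lists and to the left for the matrix, transition and early response lists, and cell cycle values of the classes interleave.

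The higher genes of the retinoid list were Aldh1a2 and Rarres2. Aldh1a2, which makes retinoic acid in the epicardium, had 444, 417, 535 and 528 CPM in members of libraries 1 to 4, against 43.4, 48.2, 41.4 and 36.6 in fibroblasts, a ratio of 10.9 (10.1 to 11.8). Rarres2, which codes for the chemoattractant chemerin and is named for its response to retinoids, had 4187, 3706, 4959 and 5170.1 CPM in members, against 549, 622, 574 and 622 in fibroblasts, a ratio of 7.51 (7.33 to 7.70). For both genes every library of members lay above every library of fibroblasts. Of the other 8 genes compared, 1 was lower, the carrier Rbp4 at 4.88 against 22.1 CPM. The list's median log2 ratio was -0.09, and its sums of 5679.6 and 1568 CPM were made up largely of Rarres2.

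The complement genes differed in both directions. Of 15 compared 6 were higher and 3 lower, with a median log2 ratio of 0.80 and sums of 6521 CPM (5761 to 6993) against 3858 (3782 to 4198). Besides C3, the convertase components C2, Cfb and C4b were at 287, 96.5 and 186 CPM in members, against 2.49, 4.70 and 12.3 in fibroblasts. C2 had 273, 314, 292 and 275 CPM in members of the 4 libraries, while Cfb ranged more widely, with 46.8, 170.5, 24.3 and 77.8. The other two higher genes were C1rl, related to the protease C1r, at 31.5 against 9.03 CPM, and clusterin. Clusterin (Clu), a chaperone that also restrains the terminal complex, was at 631 against 16.5 CPM. The lower genes were the regulator Cd55 at 99.3 against 343 CPM, the terminal component C7 at 9.22 against 59.2 and C1qb, a chain of the first component, at 3.25 against 20.5, and the inhibitor Serping1 (1155 against 1334) was abundant in both classes.

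Cytokines and chemokines stood in opposite groups. Of 16 genes compared 6 were higher and 7 lower in members, with a median log2 ratio of -0.30 and sums of 1252 and 1150.1 CPM. On the higher side, Il18, an inflammasome-dependent cytokine, had 187, 154, 158 and 185 CPM in members of libraries 1 to 4, against 5.27, 6.09, 5.02 and 4.62 in fibroblasts, and its receptor chain Il18r1 had 223 against 0.901 CPM, with 49.02 in immune barcodes. The log2 ratio of Il18r1 was 7.95, and 10.21 with marked doublets left out. All members' values of Il18 lay above all fibroblast values. The alarmin Il33 was at 197 against 58.8 CPM, the macrophage growth factor Csf1 at 171 against 83.9, and the secreted antiproteases Wfdc2 at 157 against 0.0392 and Slpi at 135 against 16.8. Slpi differed by library, with 56.5, 221, 425 and 82.4 CPM in members, against 1.74, 53.9, 0.804 and 5.15 in fibroblasts. On the lower side stood chemokines, with Cxcl14 at 2.71 against 194 CPM, Cxcl12 at 13.6 against 131, Cxcl1 at 2.71 against 78.1, Ccl2 at 0.542 against 50.2 and Ccl7 at 0.542 against 53.03.

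Growth factors and their inhibitors had a summed level of 14151 CPM in members (12142 to 15111), against 6869.7 in fibroblasts (6646 to 7294), yet only 11 of 33 genes were higher and 13 were lower, with a median log2 ratio of -0.59. The sum rested on binding proteins of insulin-like growth factors. Igfbp5 had 5391, 6440.1, 5214 and 6847 CPM in members of libraries 1 to 4, against 113, 98.4, 83.6 and 113 in fibroblasts, a ratio of 58.8 (56.9 to 60.7). Igfbp6 had 4229, 4454, 4509 and 4725 CPM in members, against 452, 573, 568 and 669 in fibroblasts, a ratio of 8.24 (8.04 to 8.45). Igfbp7 went the other way, with 565, 594, 498 and 669.7 CPM in members, against 2425, 2756, 2497 and 2451 in fibroblasts, and the ligand Igf1 was at 67.8 against 253 CPM. The members of each library were apart from fibroblasts for all 3 binding proteins. Thinned to 1000 UMIs, Igfbp5 was detected in 94.8% of members, 5.88% of fibroblasts and 7.53% of endothelial barcodes.

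Among secreted ligands, several Wnt and fibroblast growth factor genes were higher in members. Rspo1, which strengthens Wnt signals, had 388, 422, 340.3 and 409 CPM in members of libraries 1 to 4, against 8.17, 8.28, 11.7 and 10.2 in fibroblasts. Wnt5a was at 144 against 27.8 CPM, Wnt4 at 54.2 against 5.94 and Wnt2b at 23.3 against 0.725. Fgf9, an epicardial mitogen for muscle in the mouse embryo, was at 28.7 against 1.53 CPM, Tgfa, a ligand of the EGF receptor, at 46.6 against 2.04, Pdgfa at 55.3 against 6.64 and Gas6, a ligand of TAM receptors, at 342 against 137. Fgf1 was at 169 against 4.52 CPM, but by library the members had 74.03, 379.7, 36.5 and 68.6, with the value of library 2 standing out. Lower in members were the secreted glycoprotein Fstl1 (178 against 1026 CPM), the Wnt inhibitor Sfrp1 (63.5 against 225) and Vegfc (16.3 against 62.8).

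Extracellular matrix was the side on which fibroblasts led. Of 32 interstitial matrix genes 1 was higher and 21 were lower in members, with a median log2 ratio of -1.74 and sums of 8699.7 CPM (7995 to 9908) against 18988 (17393 to 20440.0). The single higher gene was fibromodulin (Fmod), a collagen-binding proteoglycan, with 263, 208, 352 and 238 CPM in members of libraries 1 to 4, against 1.55, 1.13, 1.21 and 1.95 in fibroblasts. Lumican (Lum), of the same family, had 91.6, 62.4, 12.2 and 61.02 CPM in members, against 1522, 1658, 1508 and 1709 in fibroblasts. The library values of Fmod and of Lum were thus apart in opposite directions. Col3a1 differed little, at 1601 against 1755 CPM, as did elastin (Eln, 302 against 302), while Col1a1 was at 146 against 470.2, Postn at 2.71 against 74.4 and the gelatinase Mmp2 at 18.4 against 375. Dcn, used to define fibroblasts, still reached 5213 CPM in members against 12622, whereas Gsn, used in the same sum, stood at 907 against 22175.

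Basement membrane genes were exchanged within the list. Of 21 genes 5 were higher and 9 lower, with a median log2 ratio of 0.06 and sums of 2691 against 5514 CPM. Fras1, an anchor between epithelium and mesenchyme, was at 246 against 0.666 CPM, the fibulin Efemp1 at 1103 against 91.5, the integrin ligand Npnt at 21.7 against 1.04, the laminin chain Lama5 at 25.5 against 1.94 and agrin (Agrn) at 45.02 against 12.7. The laminin chain Lama2 had 54.5, 86.1, 0 and 48.8 CPM in members of libraries 1 to 4, against 1086, 1002, 1267 and 994 in fibroblasts, and the linker nidogen (Nid1) had 44.5 against 575 CPM. Col4a1 was at 73.8 against 590.4 CPM, while Col4a3, Col4a4, Col4a5 and Col4a6 differed by less than 2-fold.

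The 10 genes of lowest ratio among those with at least 200 CPM in fibroblasts were Ms4a4d, Mfap4, Gpm6b, Sparcl1, Oaf, G0s2, Col15a1, Lpl, Lum and Rgs6. The microfibril protein Mfap4 had 5.84, 8.44, 0 and 7.63 CPM in members of libraries 1 to 4, against 282, 358, 219 and 314 in fibroblasts, and the matricellular protein Sparcl1 had 29.2, 10.1, 0 and 48.8, against 919, 941, 1106 and 998. The 10 were chosen for low ratios with the same direction in every library, so their separation by library is largely set by that choice. Library 3 held 17 members, and a value of 0 there rests on few UMIs. Lipoprotein lipase (Lpl) was at 22.8 against 600.1 CPM, the lipolysis inhibitor G0s2 at 9.22 against 248.5, and Gpm6b, the relative of Gpm6a, at 12.5 against 429, with 1405 CPM in Schwann barcodes.

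Genes of the epithelial-mesenchymal transition were mostly lower. Of 23 compared 1 was higher and 11 were lower, with a median log2 ratio of -0.997 and sums of 3047 against 5758 CPM. The repressors of epithelial genes Zeb1 and Zeb2 were at 189.8 and 83.5 CPM in members, against 868 and 581 in fibroblasts, and Snai1 at 1.08 against 27.2. The higher gene was Tead1, whose partners Yap1 (47.7 against 35.4 CPM) and Wwtr1 (133 against 153) differed by less than 2-fold. Vimentin (Vim), the mesenchymal filament that mesothelium also carries, had 1099, 1299, 1629 and 1053 CPM in members of libraries 1 to 4, against 2294, 2475, 2136 and 2327 in fibroblasts. Smooth muscle actin (Acta2) was low in both classes, at 21.7 against 27.6 CPM.

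Prostaglandin genes divided into enzymes and receptors. Of 9 genes compared 4 were higher and 3 lower, with a median log2 ratio of -0.23 and sums of 2018 against 803 CPM. The 4 higher ones were enzymes: Hpgd, which inactivates prostaglandins, with 1081, 519.8, 1179 and 816 CPM in members of libraries 1 to 4, against 12.2, 8.43, 18.3 and 7.73 in fibroblasts; the cyclooxygenase Ptgs1 at 196 against 7.97; prostacyclin synthase (Ptgis) at 705 against 345; and prostaglandin D synthase (Ptgds) at 30.4 against 0.725. The 3 lower ones were receptors, Ptgir at 1.08 against 35.1 CPM, Ptger4 at 2.17 against 25.6, and Ptgfr with no UMI in members against 20.4 CPM, a level at least 12.6-fold lower when 3 UMIs over the class are set in place of 0.

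Of 10 coagulation genes compared none was higher and 3 were lower, with a median log2 ratio of 0.16 and sums of 2278 against 2479.9 CPM. Among the lower ones, the protease inhibitor Serpine2 was at 12.5 against 166 CPM. Thrombomodulin (Thbd) stood at 91.7 against 59.1 CPM. Of 14 early response genes none was higher and 9 were lower, at 1884 CPM (1702 to 2090.4) against 3838 (3101 to 4554) in sum and a median log2 ratio of -1.29. Egr1 had 224, 213, 109 and 97.6 CPM in members of libraries 1 to 4, against 864, 580.1, 427 and 408 in fibroblasts, and Junb 122 against 512; enzymatic digestion can switch on these genes, and its part was not tested. Of the cell cycle list 3 genes could be compared and 1 was higher, Stmn1, a regulator of microtubules (108 against 10.03 CPM), while Mki67 and Top2a had 1.08 and 0.542 CPM in members. The sums of 311 and 321 CPM gave no direction that held over the alternatives. The reporter tdTomato had 12 UMIs in all members, 6.51 CPM against 17.6 in fibroblasts and 161 in immune barcodes, and Ccr2 had none in members.

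Members varied in how much fibroblast RNA they carried. The fibroblast definition, without its demand on the selecting genes, was also met by 23 members (8.42%), 7, 9, 0 and 7 in the 4 libraries, and 5 of the 23 were marked as doublets (21.7%), against 5 of the other 250 members (2%) and 7.39% of fibroblasts. These 23 had a median of 7729 UMIs, and the other members 6698. Their Gsn level was 5586 CPM, against 356 in the other members and 22175 in fibroblasts. Lum stood at 427, 25.5 and 1599 CPM in the same order, and Pi16, a gene of adventitial fibroblasts, at 927, 70.3 and 1026. The mesothelial list was at 9792 CPM in the 23 and 13656 CPM in the others, with Msln at 509.7 and 1000.4, Wt1 at 335 and 483, and Muc16 at 839 and 1299 CPM. Pdgfra and Gsn took part in the choice of the 23, whereas Lum and Pi16 did not. Thinned to 1000 UMIs, 1 member met both definitions, so that the number depends on depth.

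Within the members, genes at high level in some cells and absent in others set apart a smaller kind, described here by Csrp2, a LIM domain protein, with Fgf1 and Osr1, from a larger kind described by Myl7, Hpgd and Krt7. These 6 genes were picked after the values had been seen, so their levels are a description. A member was called Fgf1-high or Myl7-high where the summed UMIs of its 3 genes came to at least 3 and exceeded the other sum. By this cut 52 members were Fgf1-high, 195 were Myl7-high and 26 were neither. In 41 members the sums differed by at most 2 UMIs, a count that leaves out other members close to the minimum of 3. The cut divides a range, and no cell type is named from it. With sums of other genes 35 of the 52 were called Fgf1-high again and 12 were called Myl7-high, while 187 of the 195 were called Myl7-high again and 1 Fgf1-high. The other sums took Zfp804b, Fndc1, Clec3b, Mfap5 and Plac8 for the smaller kind and Rbfox1, Slc26a3, Bst1, Bcam and Gpx3 for the larger. These genes were also picked after the values had been seen, so the repeat is no independent evidence for the kinds.

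**Figure D4:**
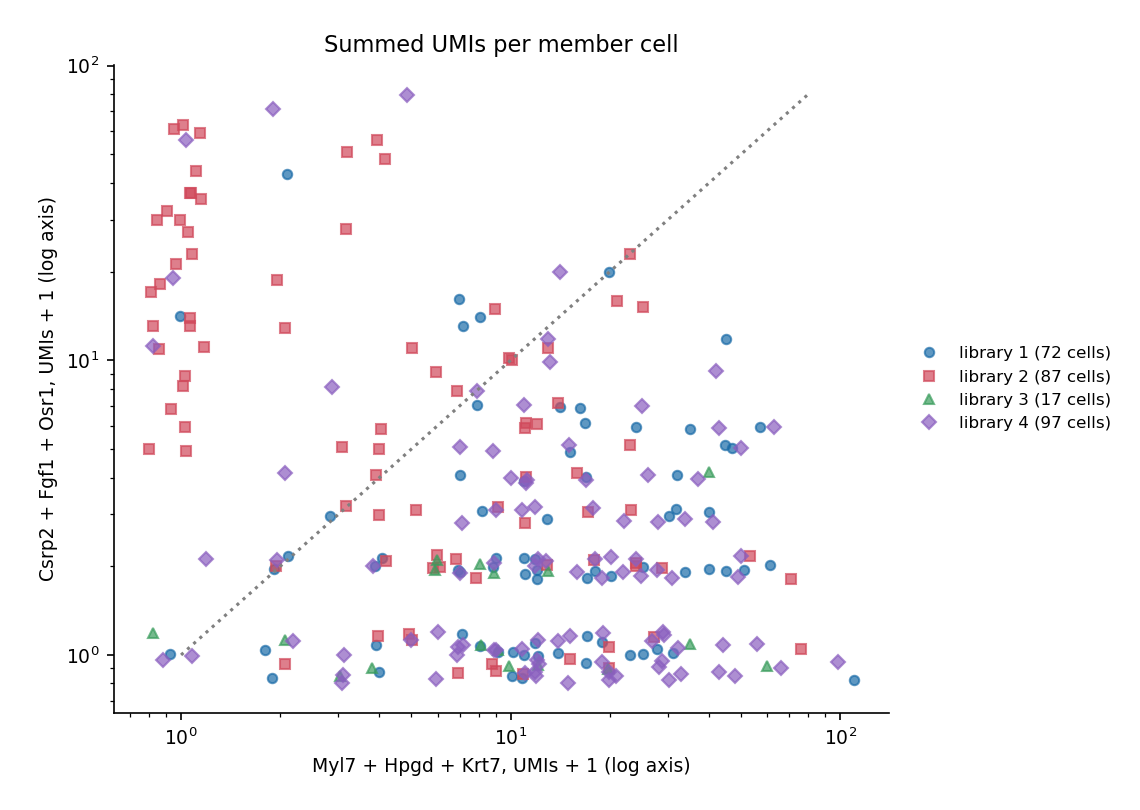
Each point is 1 of the 273 members, placed by its UMIs of Myl7, Hpgd and Krt7 (horizontal) and of Csrp2, Fgf1 and Osr1 (vertical), plus 1 on log axes and jittered by up to 0.2; the dotted line marks equal sums. Most members lie low and to the right, and most points at the upper left come from library 2.

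The kinds were spread unevenly over the libraries. Fgf1-high members numbered 5, 39, 0 and 8 in libraries 1 to 4, and Myl7-high members 60, 41, 14 and 80. The Fgf1-high share of both kinds was 7.69% (exact binomial interval 2.54% to 17.05%) in library 1, 48.8% (37.4% to 60.2%) in library 2, 0% (up to 23.2%) in library 3 and 9.09% (4.01% to 17.1%) in library 4. Library 2 therefore held most of the Fgf1-high members, and without it 13 were left. Which hearts this library came from is not known, so the share is not tied to Stroke or Control. Median depths were 7129.5 UMIs in Fgf1-high and 6898 in Myl7-high members, 4 and 5 were marked as doublets, and 8 and 13 met the fibroblast definition.

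Some genes of the class stood at like levels in both kinds and others did not. Wt1 was at 507 CPM in Fgf1-high and 454 in Myl7-high members, and C3 at 2649 and 2537, with intervals of the ratio of 0.945 to 1.32 and 0.972 to 1.12 that include 1. Igfbp6 (4433 and 4534 CPM), Rspo1 (411 and 399) and Aldh1a2 (505 and 456) were likewise at ratios whose intervals include 1. Upk3b was at 1768 CPM in Fgf1-high and 2432 in Myl7-high members and Muc16 at 724 and 1393, lower in the Fgf1-high kind in each of libraries 1, 2 and 4. Msln was at 449 and 1064 CPM, lower by a factor of 2.37 (2.02 to 2.80).

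Between the kinds 7538 genes reached 20 CPM in either, and 667 were at least 2-fold higher in Fgf1-high members (8.85%) and 557 at least 2-fold lower (7.39%). Among the higher genes were Zfp804b, a zinc finger protein, Hoxa5, a patterning transcription factor, Nlgn1, a cell adhesion protein known from synapses, and Aqp5, a water channel. Zfp804b had 558, 560.3 and 1642 CPM in Fgf1-high members of libraries 1, 2 and 4, against 0, 3.68 and 5.18 in Myl7-high members, a ratio of 245 (94.5 to 905). Hoxa5 had 112, 156 and 72.99 CPM in Fgf1-high members, against 2.28, 7.36 and 1.73 in Myl7-high members. The kinds did not overlap between libraries for either gene, and neither was found in fibroblasts at more than 1.33 CPM, but mural barcodes held 341 CPM of Zfp804b. Both genes were chosen for wide ratios with the same direction in these libraries, so their separation by library is largely set by that choice. Aqp5 was at 149.5 against 8.80 CPM, or 100.4 against 10.1 without library 2. The neuregulin receptor Erbb4 was at 336 against 31.5 CPM, with 306 in mural barcodes, the lysophospholipase Enpp2 at 328 against 24.9, and galectin-1 (Lgals1) at 5581 against 704.

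A part of the higher genes were fibroblast genes. Of the 667, 190 (28.5%) were also at least 2-fold lower in members as a whole than in fibroblasts. Over all 7834 genes compared between members and fibroblasts that share was 13.3%, and 66 of the 667 were at least 2-fold higher in members. The same members enter both comparisons, and the genes compared differ (7538 and 7834), so these shares are not like for like. Col1a1 was at 286 CPM in Fgf1-high and 103 in Myl7-high members, and the microfibril protein Mfap5 at 518 and 41.1. Dcn, a gene of the fibroblast definition and so outside the count of 190, was at 8673 and 4324. Fndc1, a protein with fibronectin domains, was at 862 and 24.2 CPM, but fibroblasts held 217 CPM, less than the Fgf1-high members. Without library 2, Mfap5 was at 211 against 47.6 CPM and Col1a1 at 191 against 104, less than 2-fold apart. Dcn was higher in each of the 3 libraries, with 6691, 8033 and 13504 CPM in Fgf1-high members, against 4372, 4458 and 4419 in Myl7-high members. Gsn, of the same sum, was higher only in library 2, with 134, 1506 and 292 CPM in Fgf1-high members of libraries 1, 2 and 4. Myl7-high members had 1100, 309 and 537.5 CPM of it. Pi16 rested on library 2, with 22.3, 917 and 0 CPM in Fgf1-high members of libraries 1, 2 and 4, and without that library it stood at 10.04 against 34.8 CPM. Ly6a, a surface antigen of stem and stromal cells, was at 294 against 32.3 CPM in all libraries, and at 60.2 against 35.7 without library 2. Lum was at 64.1 against 63.8 CPM, and at 20.1 against 76.9 without library 2.

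Complement factor B (Cfb) was at 269.7 CPM in Fgf1-high and 50.6 in Myl7-high members, a ratio of 5.33 (3.89 to 7.35), and higher in all 3 libraries that hold both kinds. Slpi was at 328 against 87.3 CPM, Il33 at 347 against 158 and the decoy receptor osteoprotegerin (Tnfrsf11b) at 80.1 against 5.87, or 120.4 against 5.50 without library 2. Of 31 growth factor genes compared 16 were higher and 3 lower, with a median log2 ratio of 1.18 against 0.06 over all genes, among the higher ones Fgf9 at 48.1 against 21.3 CPM and Igf1 at 176 against 35.2, while Igfbp5, at 8897 against 5631, differed by less than 2-fold.

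**Figure D5:**
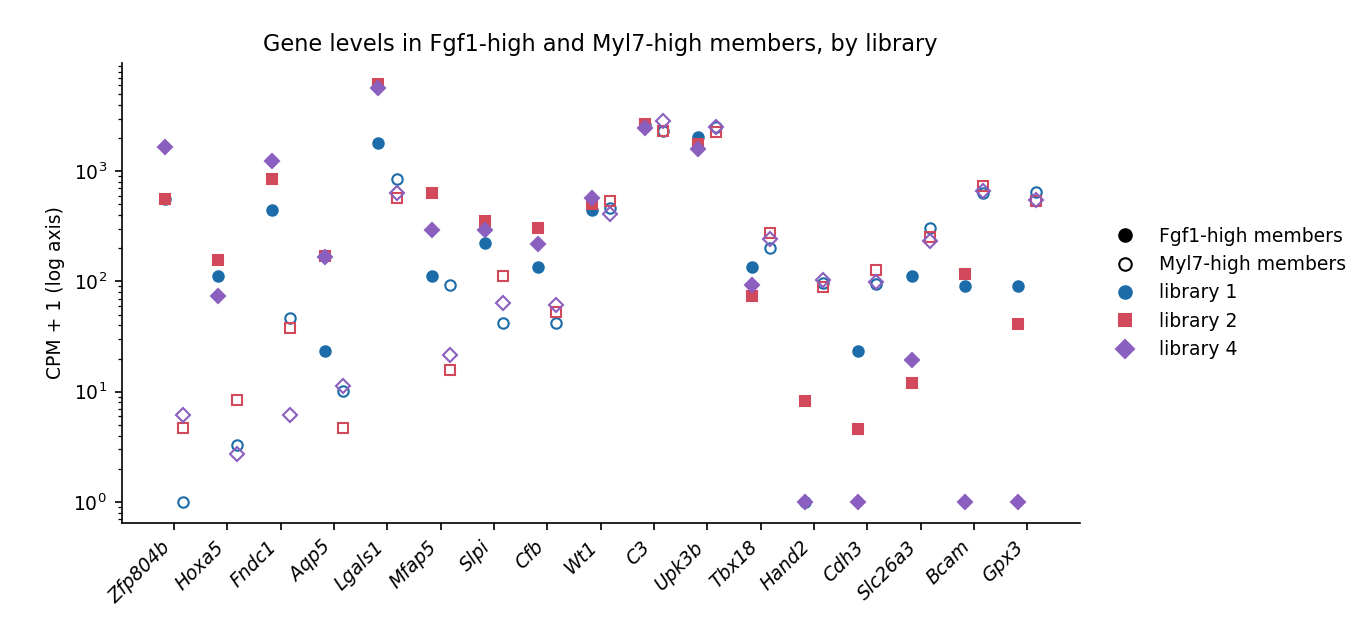
Level of 17 genes in Fgf1-high (filled) and Myl7-high members (open) of libraries 1, 2 and 4, as CPM plus 1 on a log axis; library 3 held no Fgf1-high member. In each library Zfp804b to Cfb lie higher in the Fgf1-high kind and Hand2 to Gpx3 lower, while Wt1 and C3 overlap. Several of these genes, such as Zfp804b and Gpx3, were chosen for a wide ratio with the same direction in these libraries.

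Many keratin and junction genes lay on the Myl7-high side. Of 23 keratin and junction genes 11 were lower in Fgf1-high members and 1 was higher, with a median log2 ratio of -0.91. Of the 557 lower genes, 264 (47.4%) were at least 2-fold higher in members as a whole than in fibroblasts, and 21 were lower. Over all 7834 genes compared between members and fibroblasts, the share higher in members was 13.4%. Here too the same members enter both comparisons and the genes compared differ, so these shares are not like for like. Myl7-high cells make up most members, which favours such an overlap. Cdh3 was at 5.34 CPM in Fgf1-high and 104 in Myl7-high members, and Krt8 at 56.1 and 246; without library 2 they stood at 10.04 and 98.9, and at 110.4 and 255. The junction gene on the other side was Cldn10, at 187 and 61.6 CPM. Bcam, a laminin receptor of epithelium, had 89.2, 116 and 0 CPM in Fgf1-high members of libraries 1, 2 and 4, against 638, 728 and 658 in Myl7-high members, and the secreted peroxidase Gpx3 had 89.2, 40.02 and 0, against 647, 537 and 548. Slc26a3 was at 24.03 against 269 CPM, Tm4sf5 at 74.8 against 560.3 and ezrin at 376 against 937. Without library 2, Slc26a3 was at 60.2 against 274 CPM and Tm4sf5 at 151 against 605. The cystatin gene Cst9 had no UMI in Fgf1-high members and 61.5, 346 and 199 CPM in Myl7-high members of the 3 libraries, so that it was at least 22.3-fold lower when 3 UMIs over the kind are set in place of 0.

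Of 13 epicardial transcription factors compared none was higher and 3 were lower in Fgf1-high members, with a median log2 ratio of -0.16. Hand2, which acts in cardiac development, had 0, 7.28 and 0 CPM in Fgf1-high members of libraries 1, 2 and 4, against 95.7, 88.3 and 102 in Myl7-high members, lower by a factor of 17.7 (4.81 to 148). The other two were T-box genes, and Tbx18 was at 82.8 against 246 CPM, lower in each of the 3 libraries. Tbx20 was at 8.01 against 80.7 CPM, but library 1 gave 66.9 and 66.1, so the difference lay in libraries 2 and 4. Npr3 and Kdr, the endothelial genes seen in members, were at 98.8 against 498 CPM and 179 against 331, and Kdr at 100.4 against 333 without library 2. The endothelial list as a whole was at 376 CPM in Fgf1-high and 927 in Myl7-high members, the mural list at 98.8 and 16.9, and the immune list at 160.2 and 50.6, and the part of other cells' RNA in these differences was not tested.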

How the data were processed

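Droplet single-cell RNA sequencing was made of cardiac interstitial cells in 4 samples. The authors deposited 1 table of UMI counts, whole numbers per gene and barcode, for 32286 features and 39731 barcodes. Per the submitters' processing notes the counts came from Cell Ranger 7.1.0 on build mm10, whereas the sources used here do not give how libraries were joined, whether depths were equalised, or how introns and strand were counted. The libraries held 44156588, 45834980, 31955157 and 37067428 UMIs, and no column of per-sample values was left unused (0).

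Barcodes were kept with at least 500 UMIs, 250 genes and at most 15% mitochondrial UMIs, and 821 failed. The table pools samples without a map from barcodes to samples, so it is 1 sample: no test between Stroke and Control was run, and paired or blocked fits do not apply. Counts were summed per class and set per 1000000. Ratios have exact conditional binomial intervals and levels exact Poisson intervals at 95%. A class count of 0 was set at 3 UMIs. Genes with at least 20 CPM in either class were called at 2-fold, and the summing was tested on simulated data. The text names the 20 widest higher genes (200 CPM or more in members, the same direction in every library with at least 10 members), the 10 widest lower ones, the 10 with the widest ratio to any other class, and genes of 27 fixed lists. Between the kinds, which were set after the data were seen, named genes have at least 100 CPM in the higher kind, the widest ratios and the same direction in libraries 1, 2 and 4, or come from the lists. Some list genes that count in the sums are not reported here by name. Members, lists and kinds were all chosen with earlier results of these data known.

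Doublets were scored per library with Scrublet in scanpy 1.11.5 and kept. In library 3 the automatic threshold of 0.613 marked none, and 0.208, the median of the other libraries, was used after the scores had been seen. Promoter windows came from RefSeq's GRCm38.p6 table. Python 3.11.15, numpy 2.4.6, scipy 1.17.1 and pandas 2.3.3 were used.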

Additional observations from a re-analysis of the deposited data

How the results depend on the processing

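No paired analysis was possible because the table pools the samples and its libraries carry no sample or replicate number. Leaving out 1 library at a time gave 176 to 256 members, a share of 0.617% to 0.851%, 1029 to 1076 higher and 1032 to 1128 lower genes against fibroblasts, 9 to 10 of 15 lists with a higher sum, 14 to 23 members that also met the fibroblast definition, 13 to 52 Fgf1-high and 115 to 181 Myl7-high members. The lowest Fgf1-high and fibroblast-definition numbers came without library 2, the lowest member and Myl7-high numbers and share without library 4, and the highest share without library 3. With at least 50 CPM the higher and lower genes numbered 684 and 582, with no filter on low values 3492 and 2477, and at 3-fold the lower ones 639, where the filter or threshold itself sets how many genes can be called. Thinned to 1000 UMIs, 1 member met the fibroblast definition, where fewer UMIs per cell reach its minimum.

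Marker sums of 2 or 5, a stricter cell filter, leaving out marked doublets and leaving out cells that meet the fibroblast definition moved no member count, share or gene count by more than its interval or 1.5 times. None of the 330 values of the 30 named genes over 11 settings changed direction, and the smallest absolute log2 ratio was 3.89, while 55 lay outside the interval of the main value. These genes were chosen for wide ratios with the same direction in every library, so a change of direction could hardly occur. Several log2 ratios moved far: without library 1, Myl7 to 9.43 (7.89 with all), Dmkn to 10.71 (9.27), Lrrn4 to 12.98 (11.75), Slc26a3 to 12.53 (11.92), Tm4sf5 to 12.07 (12.93), Lrp2 to 10.30 (11.05) and Il18r1 to 7.28 (7.95); without library 2, Lrp2 to 13.39, Rgs6 to -6.51 (-4.53), Tm4sf5 to 14.36 and Krt18 to 11.31 (10.65); without library 4, Sparcl1 to -5.75 (-5.06), Krt7 to 11.33 (11.97), Tm4sf5 to 12.29, Myl7 to 7.25 and Dmkn to 8.67. Without the cells that met the fibroblast definition, Col15a1 moved to -6.56 (-4.75) and G0s2 to -6.36 (-4.75), without doublets Il18r1 to 10.21, and thinned Krt8 to 8.87 (11.34) and Krt7 to 9.86. Of these, the values of Slc26a3, Tm4sf5 and Krt18 lay inside the main interval. So did Lrp2 without library 1, and Krt7 and Dmkn without library 4. Fibroblasts held only 3 UMIs each of Tm4sf5 and Slc26a3, 5 of Krt7, and 8 each of Lrp2 and Lrrn4. The cause of the shifts was not tested. Of 165 list sums none with an interval apart from 1 changed direction, and 51 lay outside their interval. Depth limits genes near 1 UMI over the members, library 3 with 17 members, and each value of a kind in a library with few cells, such as the 5 Fgf1-high members of library 1.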
